A study of Mus musculus with 4 samples.

Results

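The genes described here are 39 DNA repair and damage signalling genes, chosen by name from the 46517 genes of a TPM table of mouse LSK cells. They cover mismatch repair, homologous recombination, processing of break ends, checkpoint signalling, end joining, the Fanconi pathway, and base excision and single-strand break repair. Each name matched 1 row. LSK cells lack lineage markers and carry Sca-1 and c-Kit, and are the compartment in which haematopoietic stem cells and early progenitors lie. The design sets Setd2D/D cells (Setd2 knocked out, 2 libraries) against Setd2f/f cells (wild-type Setd2, 2 libraries), all from C57BL/6 mice of 8 to 10 weeks. The sources used here do not give the exons removed, the Cre line or how many mice were pooled. The labels do not say that replicates came from separate mice, so a p-value covers the spread of these 4 libraries alone, and part of it may be technical. Values are TPM, the length-normalised share of a gene in the transcripts of a library, and in sorted bulk cells less RNA per cell and fewer cells that carry a transcript cannot be told apart.

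DNA repair pathways differ in the lesion they handle. Mismatch repair removes bases mispaired in replication, base excision repair removes damaged bases, the Fanconi pathway unhooks crosslinks, and double-strand breaks are either copied from the sister chromatid by homologous recombination or joined directly. The kinases ATM, ATR and DNA-PK report the damage and hold the cell cycle. Setd2 places the trimethyl mark on H3K36 in transcribed gene bodies, and in human cells the PWWP domain of MSH6 binds this mark, while the CtIP nuclease factor (Rbbp8 in mouse) is brought to marked chromatin through LEDGF. Stem cells of the marrow are known to depend on several of these genes, among them Atm, Lig4, Fancd2 and Fancc.

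Setd2 itself was at 43.4 and 49.5 TPM in Setd2D/D, against 78.9 and 68.0 TPM in Setd2f/f, with no overlap (limma log2 change -0.65, adjusted p = 0.329), and the authors' deposited table gives it -0.73 on the log2 scale (FDR = 5.84e-06). That value covers the whole gene, so transcripts that lack only the deleted part still count. What part of the Setd2 RNA left in Setd2D/D they make up was not tested. The sort genes Kit and Ly6a were present in all libraries. Kit was at 301 and 285 TPM in Setd2D/D, against 224 and 248.7 TPM in Setd2f/f, and Ly6a at 46.5 and 80.6 TPM in Setd2D/D, against 127 and 124 TPM in Setd2f/f. Ly6a, which encodes Sca-1, was thus lower without overlap (limma log2 change -1.02, adjusted p = 0.370). Its fall was past the authors' FDR threshold, at -0.91 on their log2 scale (FDR = 3.08e-06). Kit was higher without overlap, with 0.35 on that scale (FDR = 0.113). The progenitor marker genes Cd34, Cd48 and Flt3 were lower without overlap, with Cd34 at 520.4 and 476 TPM in Setd2D/D, against 773 and 747 TPM in Setd2f/f. The authors' deposited table gives Cd34 a log2 change of -0.40 (FDR = 0.0461), with an FDR of 0.123 for Cd48 and 0.465 for Flt3. The marker gene Slamf1 was at 2.98 and 5.26 TPM in Setd2D/D, against 2.34 and 4.12 TPM in Setd2f/f. Its libraries overlapped, with a limma log2 change of 0.27. Sums over marker lists of other lineages did not overlap between the genotypes, except for the neutrophil and monocyte list. The 19 erythroid genes summed to 1177 and 1053 TPM in Setd2D/D, against 598 and 459 TPM in Setd2f/f. The 18 neutrophil and monocyte genes summed to 3664 and 5487 TPM in Setd2D/D, against 3110 and 3695 TPM in Setd2f/f, and the 14 B lineage genes to 259 and 363 TPM in Setd2D/D, against 732 and 396 TPM in Setd2f/f. The 12 T and NK genes summed to 118 and 149.9 TPM in Setd2D/D, against 187 and 186 TPM in Setd2f/f. At an FDR under 0.05, the authors' deposited table has 12 of the 19 erythroid genes higher and 0 lower. Of the 14 B lineage genes it has 8 lower and 0 higher. Of the neutrophil and monocyte genes it has 6 higher and 3 lower, and of the T and NK genes 2 lower and 0 higher. Over all its genes it has 1.51% higher and 1.64% lower. No gene of these lists was at 0 in all 4 libraries. Of the 30 S phase genes, 8 had a log2 change above 0 (median -0.11), and of the 28 mitosis genes 19 did (median 0.09). Of all genes tested 42.1% did (median -0.06). At an unadjusted limma p under 0.05 were 6.67% of the S phase and 21.4% of the mitosis genes, where 11.2% of all genes tested were. The part of cell type and of cell cycle in the repair gene values was not tested. Across genes, Setd2D/D replicate 1 correlated at r = 0.91 with each other library, and the Setd2f/f libraries at r = 0.96 with each other.

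The repair genes as a group were at nearly the same level in both genotypes. Their TPM summed to 1556 and 1485 in the Setd2D/D libraries, against 1513 and 1571 in the Setd2f/f libraries. All 39 passed the filter on low values, and 38 were at 1 TPM or more in every library. Of the 39, 20 had a log2 change above 0 and 19 below, with a median of 0.01, beside a median of -0.06 over the 14755 genes tested. By limma on log2(TPM + 1), 0 of the 39 passed an adjusted p of 0.05, where 0.0678% of all genes tested did, and their adjusted p-values ran between 0.423 and 0.995. At an unadjusted p under 0.05 limma placed 1 member, Msh6, against 11.2% of all genes tested. The authors' deposited table placed 1 member, Trp53bp1, past an FDR of 0.05, which is 2.56% of the members, where it has 3.15% of its 23955 genes (1.51% higher and 1.64% lower). The other 38 had an FDR between 0.159 and 0.990 there, and 6 members (15.4%) had an unadjusted p under 0.05, where 11.2% of its genes did.

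Separation of the genotypes was about as common as among other genes. Both Setd2D/D libraries lay on 1 side of both Setd2f/f libraries for 18 members, 46.2% of them, where 44.3% of all genes tested did. Of these, 7 were higher (all genes 16.8%) and 11 lower (all genes 27.6%) in Setd2D/D. Only Lig4, at the lowest level of all members, had an absolute log2 change of 0.5 or more (2.56% of the members), beside 23.6% of all genes tested. With a library left out, that number was 1 without the first Setd2D/D library, 5 without the other, 2 without the first Setd2f/f library and 1 without the other. The 95% interval of a member's log2 change reached a median of 0.49 to either side with 2 libraries a genotype, and excluded 0 for Msh6 alone. The members' median change was -0.12 with the first Setd2D/D library left out and 0.04 with the other left out. It was -0.10 with either Setd2f/f library left out.

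**Figure D1:**
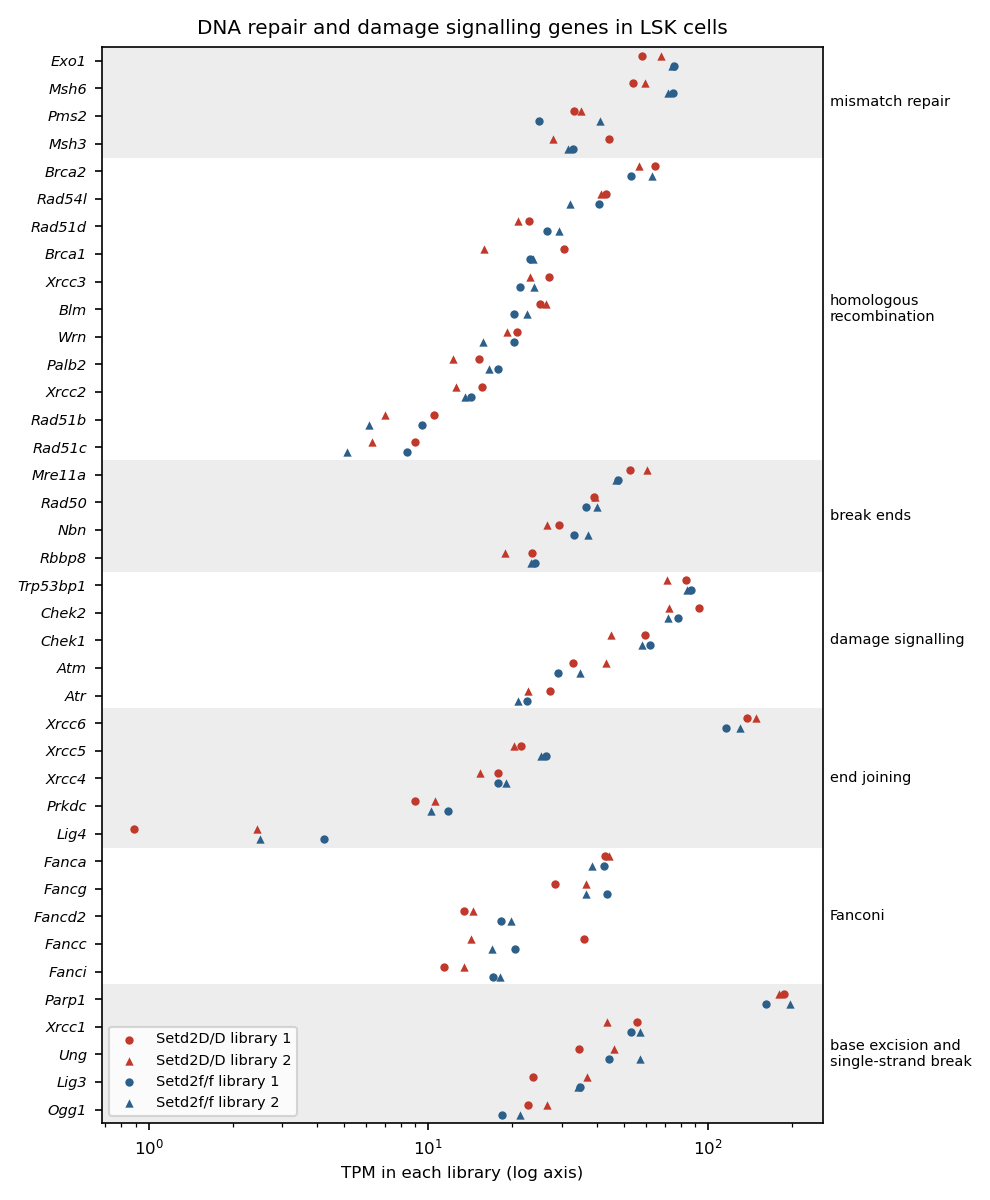
TPM of the 39 repair genes in each library, on a log axis, ordered by role and by level in Setd2f/f. Red symbols are the Setd2D/D libraries and blue symbols the Setd2f/f libraries, with a circle for replicate 1 and a triangle for replicate 2. Most genes lie between 10 and 100 TPM, the highest is Parp1 and the lowest Lig4, and the genotypes overlap for 21 of the 39.

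**Figure D2:**
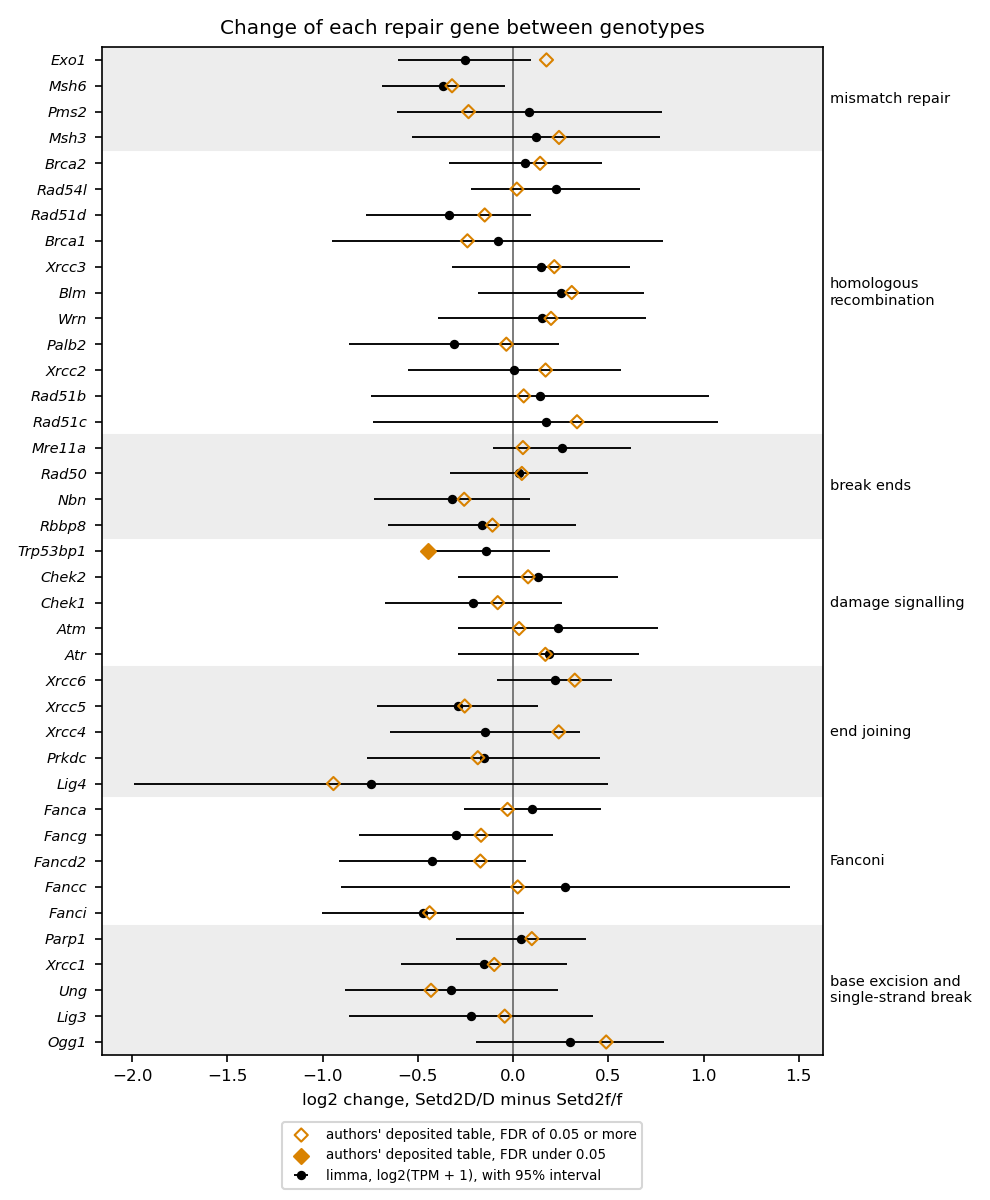
Change of each repair gene, Setd2D/D minus Setd2f/f. Black points and bars are the limma log2 change on log2(TPM + 1) with its 95% interval, and diamonds are the log2 fold change of the authors' deposited table, filled for Trp53bp1, the 1 gene with an FDR under 0.05. All black bars except that of Msh6 cross 0.

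In mismatch repair, Msh6 was lower in both Setd2D/D libraries. It encodes a subunit of the complex that finds single mispairs and small loops, and it carries the PWWP domain named above. Msh6 (ENSMUSG00000005370, GRCm38 chromosome 17, 87975062 to 87990892) was at 54.0 and 59.4 TPM in Setd2D/D, against 75.04 and 71.6 TPM in Setd2f/f. The libraries did not overlap, at a ratio of means of 0.774, and the limma log2 change was -0.37 (SE 0.12, adjusted p = 0.423). The authors' deposited table gives it a log2 change of -0.32 (FDR = 0.241.) Msh3, which serves in the recognition of larger loops, was at 44.2 and 28.0 TPM in Setd2D/D, against 32.9 and 31.7 TPM in Setd2f/f (limma adjusted p = 0.890). One Setd2D/D library was above and the other below both Setd2f/f libraries. Exo1, the exonuclease that removes the mispaired strand, was at 57.9 and 68.0 TPM in Setd2D/D, against 75.4 and 74.6 TPM in Setd2f/f, lower without overlap (limma log2 change -0.25, adjusted p = 0.539). Pms2, of the complex that nicks that strand, was at 33.1 and 35.1 TPM in Setd2D/D, within the 24.9 and 41.1 TPM of Setd2f/f.

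The start regions of these genes show what some members share. E2F factors drive genes of DNA synthesis and often bind words of the form TTTCCCGC, TTTGGCGC, TTTCGCGC or TTTGCCGC. These 4 words were searched on both strands, overlaps included, in windows of 250 bases before to 50 bases after each start (RefSeq, GRCm38.p6), in which 30 of the 39 members matched. Of these 30, 7 held a word (23.3%), namely Brca2, Chek2, Fancg, Msh3, Msh6, Rad51c and Xrcc6, as did 2.61% of the 27025 genes of the table and 4.62% of its 9728 genes tested here. Other short words were searched in the same way. The CCAAT box was in 56.7% of the 30 members and 42.9% of the genes tested, the GC box GGGCGG in 70.0% and 67.2%, and the cell cycle words TTTGAA or TTCGAA in 6.67% and 16.5%. The windows of the mismatch recognition genes Msh6 and Msh3, of the recombination mediator Brca2 and of the end joining gene Xrcc6 are shown because they hold a word and stand for the different outcomes, with Msh6 lower, Xrcc6 higher and Msh3 and Brca2 overlapping between the genotypes. Capitals mark the words.
Msh6 (GRCm38.p6 chr17:87974800-87975099, plus strand): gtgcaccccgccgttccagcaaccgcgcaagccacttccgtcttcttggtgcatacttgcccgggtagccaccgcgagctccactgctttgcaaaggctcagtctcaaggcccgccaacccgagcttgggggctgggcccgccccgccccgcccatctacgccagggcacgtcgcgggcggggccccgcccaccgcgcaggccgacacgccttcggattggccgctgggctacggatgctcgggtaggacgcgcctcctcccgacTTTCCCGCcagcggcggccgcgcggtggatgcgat
Msh3 (GRCm38.p6 chr13:92354954-92355253, minus strand): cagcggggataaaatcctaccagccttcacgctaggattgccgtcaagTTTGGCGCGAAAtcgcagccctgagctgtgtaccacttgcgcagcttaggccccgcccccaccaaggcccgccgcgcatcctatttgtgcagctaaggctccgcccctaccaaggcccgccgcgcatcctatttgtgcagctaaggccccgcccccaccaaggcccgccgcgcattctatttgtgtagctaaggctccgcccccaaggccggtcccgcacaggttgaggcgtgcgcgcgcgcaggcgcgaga
Brca2 (GRCm38.p6 chr5:150522371-150522670, plus strand): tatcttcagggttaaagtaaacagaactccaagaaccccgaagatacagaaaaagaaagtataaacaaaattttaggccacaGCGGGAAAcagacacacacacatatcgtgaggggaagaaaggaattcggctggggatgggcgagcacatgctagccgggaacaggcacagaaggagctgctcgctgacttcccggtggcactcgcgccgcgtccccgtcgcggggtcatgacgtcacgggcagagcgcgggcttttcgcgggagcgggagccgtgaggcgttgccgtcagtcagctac
Xrcc6 (GRCm38.p6 chr15:82016119-82016418, plus strand): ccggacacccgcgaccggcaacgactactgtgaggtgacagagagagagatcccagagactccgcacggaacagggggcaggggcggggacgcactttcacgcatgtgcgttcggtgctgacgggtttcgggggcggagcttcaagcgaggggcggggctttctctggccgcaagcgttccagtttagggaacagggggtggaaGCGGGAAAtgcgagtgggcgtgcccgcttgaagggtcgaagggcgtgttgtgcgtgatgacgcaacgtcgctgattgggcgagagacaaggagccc
In Msh6 the word lies 16 to 23 bases after the start, and in Xrcc6 its complement lies at -46 to -39. In Msh3 the capitals cover TTTGGCGC and, on the other strand, an overlapping TTTCGCGC. The 7 members with a word had a median log2 change of 0.12 with 5 above 0, and the 23 without one a median of 0.04 with 12 above 0, beside -0.07 over the 450 genes tested that hold a word. A word is a description of these letters, not a site.

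Homologous recombination genes were mostly at like levels. Brca1, which commits breaks to recombination, was at 30.6 and 15.9 TPM in Setd2D/D, against 23.1 and 23.8 TPM in Setd2f/f. The Setd2D/D libraries lay on opposite sides of Setd2f/f, so that the log2 change of -0.08 (SE 0.33) became -0.53 without replicate 1 of Setd2D/D and 0.37 without replicate 2. Brca2, a mediator of recombination, was at 64.7 and 56.7 TPM in Setd2D/D, against 53.0 and 63.3 TPM in Setd2f/f (limma adjusted p = 0.908). Palb2, the bridge between those proteins, was at 15.2 and 12.2 TPM in Setd2D/D, against 17.8 and 16.5 TPM in Setd2f/f. The libraries of Palb2 did not overlap (limma log2 change -0.31, adjusted p = 0.615), while the authors' deposited table gives it -0.04 (FDR = 0.976). Among the genes that assist strand exchange, Rad51d was at 22.8 and 20.9 TPM in Setd2D/D, against 26.5 and 29.3 TPM in Setd2f/f, lower without overlap (limma log2 change -0.34, adjusted p = 0.514), with -0.15 in the authors' deposited table (FDR = 0.866). Rad51b was at 10.5 and 7 TPM in Setd2D/D, against 9.52 and 6.15 TPM in Setd2f/f, with overlap. Rad51c, Xrcc2 and Xrcc3 had log2 changes between 0.01 and 0.17, each with overlap.

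Of the members in this group, Blm, Rad54l and Wrn lay above 0 by limma. Blm, the RecQ helicase that dissolves crossed strands, was at 24.98 and 26.3 TPM in Setd2D/D, against 20.2 and 22.5 TPM in Setd2f/f, higher without overlap (limma log2 change 0.25, adjusted p = 0.605). The authors' deposited table gives it a log2 change of 0.31 (FDR = 0.293.) Rad54l, a motor of strand exchange, was at 43.2 and 41.6 TPM in Setd2D/D, against 40.6 and 32.1 TPM in Setd2f/f. The authors' deposited table gives Rad54l a log2 change of 0.02 (FDR = 0.982). Wrn had a limma log2 change of 0.15 with overlap, which became -0.02 without replicate 2 of Setd2f/f.

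The genes that handle break ends lay on both sides of 0. Mre11a, the nuclease of the complex that senses broken ends, was at 52.5 and 60.8 TPM in Setd2D/D, against 47.5 and 46.8 TPM in Setd2f/f, higher without overlap (limma log2 change 0.26, SE 0.14, adjusted p = 0.544), while the authors' deposited table gives it 0.05 (FDR = 0.932). Nbn, its subunit that recruits ATM, was at 29.4 and 26.6 TPM in Setd2D/D, against 33.3 and 37.1 TPM in Setd2f/f, lower without overlap (limma log2 change -0.32, SE 0.16, adjusted p = 0.514), with -0.26 in the authors' deposited table (FDR = 0.609). Rad50, the scaffold of the same complex, was at 39.02 and 39.5 TPM in Setd2D/D, within the 36.8 and 40.2 TPM of Setd2f/f. Rbbp8, which starts end resection, was at 23.5 and 18.9 TPM in Setd2D/D, against 24.1 and 23.4 TPM in Setd2f/f (limma log2 change -0.16, adjusted p = 0.781), and its libraries overlapped.

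Trp53bp1 was the only member past the threshold in the authors' deposited table. It encodes 53BP1, which shields ends from resection and favours end joining. Trp53bp1 (ENSMUSG00000043909, GRCm38 chromosome 2, 121193281 to 121271407) was at 83.4 and 71.5 TPM in Setd2D/D, against 86.8 and 84.2 TPM in Setd2f/f. All Setd2D/D values were below all Setd2f/f values, with -0.82 TPM between the nearest libraries. It fell in the authors' deposited table, with a log2 change of -0.45 (FDR = 0.0298), while the limma log2 change on TPM was -0.14 (SE 0.13, adjusted p = 0.705). Atm, the kinase of double-strand breaks, was at 32.9 and 43.1 TPM in Setd2D/D, against 29.1 and 34.9 TPM in Setd2f/f, with overlap (limma adjusted p = 0.695). Atr, the kinase of stalled forks, was at 27.2 and 22.7 TPM in Setd2D/D, against 22.5 and 20.96 TPM in Setd2f/f, higher by 0.16 TPM at the nearest pair (limma adjusted p = 0.732). The checkpoint kinase genes Chek1, activated by ATR, and Chek2, activated by ATM, had log2 changes of -0.21 and 0.13, each with overlap.

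In end joining, the genes of the Ku heterodimer, which caps broken ends, differed in opposite directions. Xrcc6, which encodes Ku70, was at 138 and 149 TPM in Setd2D/D, against 116 and 130.0 TPM in Setd2f/f (limma log2 change 0.22, SE 0.12, adjusted p = 0.540). Xrcc5, which encodes Ku80, was at 21.5 and 20.3 TPM in Setd2D/D, against 26.3 and 25.2 TPM in Setd2f/f (limma log2 change -0.29, SE 0.16, adjusted p = 0.552). Neither gene's libraries overlapped between the genotypes. The authors' deposited table gives Xrcc6 a log2 change of 0.32 (FDR = 0.236) and Xrcc5 one of -0.25 (FDR = 0.706). Prkdc, the catalytic subunit of DNA-PK, was at 9 and 10.6 TPM in Setd2D/D, against 11.8 and 10.2 TPM in Setd2f/f, with overlap. Lig4, the ligase of this pathway, was at 0.890 and 2.45 TPM in Setd2D/D, against 4.23 and 2.50 TPM in Setd2f/f, with -0.05 TPM between the nearest libraries (limma log2 change -0.74, SE 0.48, adjusted p = 0.595). Without the first Setd2D/D library the change was -0.31, without the other -1.18, without the first Setd2f/f library -0.45 and without the other -1.03. The authors' deposited table gives Lig4 a log2 change of -0.94 (FDR = 0.619), and on log2(TPM + 1) the change of so low a gene is understated. Xrcc4, the partner of the ligase, was at 17.69 and 15.3 TPM in Setd2D/D, against 17.70 and 19.0 TPM in Setd2f/f. It counts as lower without overlap by only -0.01 TPM between the nearest libraries.

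The Fanconi genes Fancd2 and Fanci, whose proteins form the pair that is ubiquitinated at crosslinks, were both lower in Setd2D/D. Fanci was at 11.4 and 13.5 TPM in Setd2D/D, against 17.1 and 18.01 TPM in Setd2f/f (limma log2 change -0.47, SE 0.20, adjusted p = 0.479). Fancd2 was at 13.4 and 14.4 TPM in Setd2D/D, against 18.2 and 19.8 TPM in Setd2f/f (limma log2 change -0.42, SE 0.19, adjusted p = 0.483). The genotypes did not overlap for either gene. The authors' deposited table gives Fanci a log2 change of -0.44 (FDR = 0.159) and Fancd2 one of -0.17 (FDR = 0.780). Among genes of the core complex that ubiquitinates this pair, Fancc was at 35.9 and 14.2 TPM in Setd2D/D, against 20.5 and 16.9 TPM in Setd2f/f. The 2 Setd2D/D libraries thus lay on either side of Setd2f/f, and the log2 change of 0.27 became -0.36 without replicate 1 of Setd2D/D and 0.91 without replicate 2. Fancg, with a log2 change of -0.30, overlapped, and Fanca was at 42.7 and 44.2 TPM in Setd2D/D, against 42.6 and 38.5 TPM in Setd2f/f, higher by 0.15 TPM at the nearest pair.

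Base excision genes included the member with the highest log2 change. Ogg1, the glycosylase that removes oxidised guanine, was at 22.7 and 26.5 TPM in Setd2D/D, against 18.3 and 21.3 TPM in Setd2f/f, higher without overlap (limma log2 change 0.30, SE 0.19, adjusted p = 0.592). The authors' deposited table gives it 0.49 on the log2 scale with an FDR of 0.476. Ung, which removes uracil, was at 34.7 and 46.0 TPM in Setd2D/D, against 44.2 and 57.1 TPM in Setd2f/f, and its libraries overlapped (limma log2 change -0.32, adjusted p = 0.605). In the authors' deposited table Ung had a log2 change of -0.43 (FDR = 0.211.) Parp1, the sensor of strand breaks and the most abundant member, was at 188 and 179 TPM in Setd2D/D, within the 161 and 196 TPM of Setd2f/f. The ligase gene Lig3 was at 23.6 and 37.0 TPM in Setd2D/D, on either side of the 35.0 and 34.4 TPM of Setd2f/f, and Xrcc1, the scaffold that carries this ligase, had a log2 change of -0.15 with overlap.

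Partner genes were set against each other within each library, for pairs chosen after the values were seen and without a test. The ratio of Xrcc6 to Xrcc5 was 6.41 and 7.34 in the Setd2D/D libraries, against 4.41 and 5.16 in the Setd2f/f libraries. That of Mre11a to Nbn was 1.79 and 2.28 in Setd2D/D, against 1.43 and 1.26 in Setd2f/f. Neither ratio overlapped between the genotypes. The ratio of Fancd2 to Fanci was 1.18 and 1.07 in Setd2D/D, against 1.07 and 1.10 in Setd2f/f, with overlap. That of Msh6 to Msh3 was 1.22 and 2.13 in Setd2D/D, against 2.28 and 2.26 in Setd2f/f, lower without overlap. Its lowest value is that of Setd2D/D replicate 1, where Msh3 was highest.

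Replicates of the repair genes lay closer together than those of the genes tested at large, and the repair genes also lay at a higher level (median 31.6 against 19.3 TPM). The median absolute log2 difference between replicates was 0.22 in Setd2D/D and 0.14 in Setd2f/f over the 39 members, beside 0.29 and 0.20 over all genes tested. The Setd2D/D pair differed more than the Setd2f/f pair for 25 of the 39 (64.1%), as it did for 61.6% of all genes tested. The widest differences within Setd2D/D were those of Fancc (1.28 on the log2 scale) and Brca1 (0.91), both higher in replicate 1, and of Lig4 (-0.87), higher in replicate 2.

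The authors' deposited fold changes and the ratio of mean TPM differed for some members. Over the 14607 genes in both, the log2 ratio of mean TPM minus the log2 change of the authors' deposited table had a median of -0.05 and quartiles of -0.08 and -0.00076. Over the members the median was -0.06, with quartiles of -0.13 and 0.08, and 4 of the 39 (10.3%) differed by 0.3 or more, as did 10.6% of all genes. Exo1 had a log2 ratio of -0.25 in TPM and a log2 change of 0.18 in the authors' deposited table, and Xrcc4 had -0.15 and 0.24, so both had opposite signs on the 2 scales. Fancc had 0.42 and 0.02, and Trp53bp1 had -0.14 and -0.45. TPM divides the reads of a gene by an effective length that depends on which transcripts are assigned, and the members have a median of 7 annotated transcripts, beside 4 over the genes tested, among them 19 each for Trp53bp1 and Fancc, 10 for Exo1 and 4 for Xrcc4. The absolute distance of the difference between the 2 scales from its median over 14529 genes was set against the number of transcripts. The Spearman rho was 0.38 across those genes and 0.22 among the 39 members, where genes share the same libraries. The part of transcript length in these differences was not tested.

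**Figure D3:**
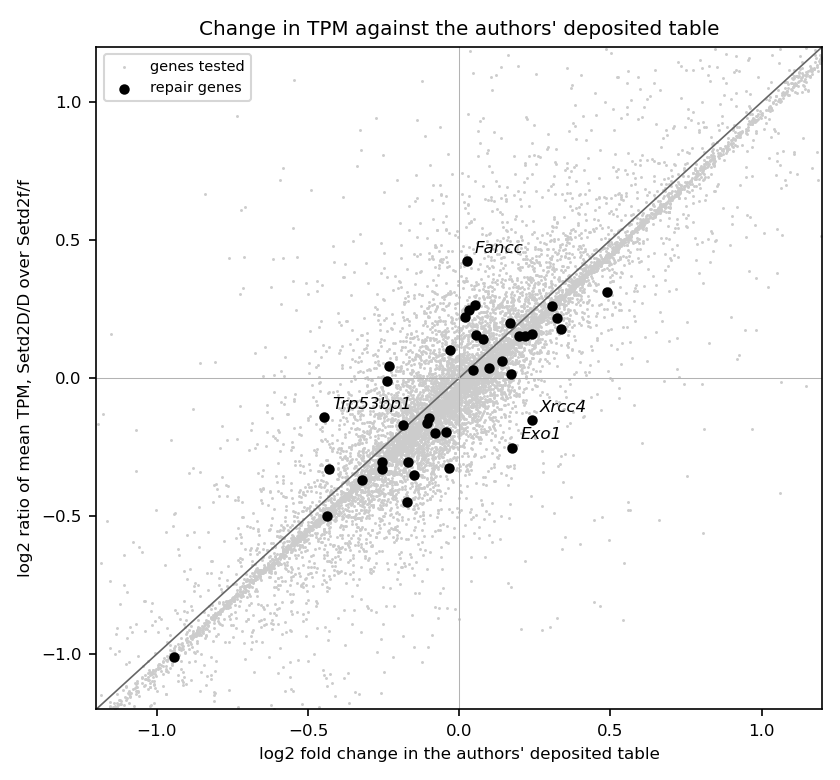
Log2 ratio of mean TPM, Setd2D/D over Setd2f/f (vertical), against the log2 fold change of the authors' deposited table (horizontal). Black points are the 39 repair genes, grey points the genes tested within 1.2 of 0 on both axes, and the line marks equal values. The 4 named genes differ by 0.3 or more between the scales, and Exo1 and Xrcc4 have opposite signs.

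The title of the study concerns elongation by RNA polymerase II, and the members span a wide range of lengths, between 8097 bp for Ogg1 and 517409 bp for Rad51b. Among the 7 members over 100000 bp (Rad51b, Xrcc4, Fancc, Prkdc, Wrn, Msh3 and Rbbp8), 4 had a log2 change above 0, with a median of 0.12. Among the 9 under 20000 bp, 3 did, with a median of -0.30, and among the 23 between, 13 did, with a median of 0.04. The Spearman rho of span and log2 change was 0.30 over the 39 members, which share the same 4 libraries, and 0.01 over 14676 genes tested. For all genes tested, 42.2% lay above 0 both under 20000 bp and over 100000 bp.

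**Figure D4:**
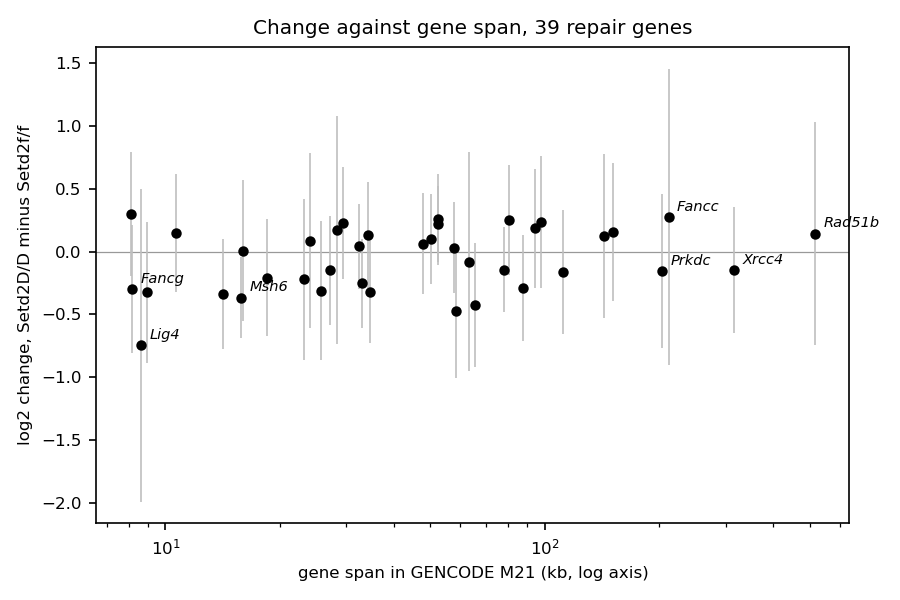
Limma log2 change of the 39 repair genes, Setd2D/D minus Setd2f/f, with 95% intervals in grey, against the length of the gene from its first to its last annotated base (kb, log axis). The longest gene, Rad51b, lies at 0.14 and the lowest point is Lig4 at -0.74.

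Many members start beside another gene. An opposite-strand protein-coding gene started within 1000 bp of the start of 17 of the 39 members (43.6%), beside 16.7% of the 12077 protein-coding genes tested. Of the 15 such pairs in which both genes were tested, 6 had changes of the same sign. Atm and Npat, a histone gene regulator, start 307 bp apart, and Npat was at 15.9 and 19.8 TPM in Setd2D/D, against 19.4 and 18.3 TPM in Setd2f/f. Prkdc starts 466 bp from the replication helicase gene Mcm4, which was at 117 and 117 TPM in Setd2D/D, against 119.8 and 119 TPM in Setd2f/f. Brca1 starts 194 bp from the autophagy receptor gene Nbr1, at 86.9 and 77.4 TPM in Setd2D/D, against 82.6 and 74.6 TPM in Setd2f/f. Npat and Nbr1 overlapped between the genotypes, and both Setd2D/D values of Mcm4 lay below those of Setd2f/f. For 18 members, exons overlap those of a gene on the other strand, among them Fanci with Polg, Xrcc6 with Desi1 and Trp53bp1 with Tubgcp4. The sources used here do not say whether the libraries kept strand, so reads of such partners cannot be told apart.

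Other repair genes were listed by pathway. Of 134 found, 132 were tested, and 0 passed limma in either direction (16 at an unadjusted p under 0.05, or 12.1%, where 11.2% of all genes tested were), with 51 above 0 and a median log2 change of -0.06. Of the 134, the authors' deposited table places 3 lower and 1 higher, or 2.99%, where it has 3.15% of all its genes. The lower genes are all recombination genes. Rad51ap1 was at 48.6 and 58.7 TPM in Setd2D/D, against 97.8 and 91.7 TPM in Setd2f/f (limma log2 change -0.82, adjusted p = 0.252), and the authors' deposited table gives it -0.66 with an FDR of 0.00275. Rmi2, which works with BLM, was at 7.83 and 9.07 TPM in Setd2D/D, against 13.8 and 15.9 TPM in Setd2f/f, with a log2 change of -0.76 and an FDR of 0.0162 in the authors' deposited table. The helicase gene Recql was at 37.0 and 38.5 TPM in Setd2D/D, against 54.7 and 45.5 TPM in Setd2f/f (FDR = 0.00636 in the authors' deposited table). The higher one, Xpc, which detects distorting lesions for nucleotide excision repair, was at 96.6 and 93.7 TPM in Setd2D/D, against 71.0 and 73.3 TPM in Setd2f/f, and the authors' deposited table gives it a log2 change of 0.44 (FDR = 0.0327.)

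Within each of these lists limma called 0 genes. Genotypes did not overlap for 48.5% of the 132, where 44.3% of all genes tested did (27.6% lower and 16.8% higher). By list the share was 62.1% for recombination, 60.0% for Fanconi, 54.5% for mismatch repair, 50% for nucleotide excision, 41.7% for end joining, 37.5% for signalling and 28.6% for base excision. Of the 29 other recombination genes tested, 14 were lower and 4 higher without overlap, and of the 15 other Fanconi genes 8 were lower and 1 higher. Fance, of the Fanconi core complex, was at 21.1 and 15.6 TPM in Setd2D/D, against 32.4 and 33.2 TPM in Setd2f/f. The repair endonuclease gene Ercc1 was at 26.7 and 27.2 TPM in Setd2D/D, against 38.1 and 53.3 TPM in Setd2f/f. Limma gives Ercc1 a log2 change of -0.72 (adjusted p = 0.393), while the authors' deposited table gives it -0.05 (FDR = 0.974). For Fance that table has -0.64 (FDR = 0.246). Of the 24 nucleotide excision genes 7 were higher and 5 lower, with Gtf2h3, of the repair and transcription factor TFIIH, at 24.2 and 27.8 TPM in Setd2D/D, against 44.9 and 40.0 TPM in Setd2f/f. The base excision list had 5 higher and 1 lower of 21. In that list Aptx, which cleans blocked ends, was at 30.6 and 33.1 TPM in Setd2D/D, against 19.8 and 14.4 TPM in Setd2f/f, and the glycosylase gene Neil2 at 2.92 and 2.58 TPM in Setd2D/D, against 0.42 and 0.67 TPM in Setd2f/f. The mismatch list had 5 lower and 1 higher of 11, led by Pcna at 534 and 479 TPM in Setd2D/D, against 644 and 586 TPM in Setd2f/f, and by Pold1 at 109 and 115 TPM in Setd2D/D, against 128 and 151 TPM in Setd2f/f. The signalling list had 8 lower and 1 higher of 24, with H2afx at 139 and 178 TPM in Setd2D/D, against 195 and 223 TPM in Setd2f/f, and Fam175a at 21.2 and 29.6 TPM in Setd2D/D, against 45.5 and 37.2 TPM in Setd2f/f. The end joining list had 3 higher and 2 lower of 12, with a median log2 change of 0.01. The 2 lower genes were Tdp2 and Mad2l2 (FDR = 0.766 and 0.491 in the authors' deposited table). Tdp2 was at 35.1 and 38.0 TPM in Setd2D/D, against 49.6 and 43.0 TPM in Setd2f/f. Mad2l2 was at 8.66 and 25.3 TPM in Setd2D/D, against 31.0 and 28.5 TPM in Setd2f/f.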

How the data were processed

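RNA of LSK cells had been sequenced from 2 Setd2D/D and 2 Setd2f/f libraries. The authors deposited TPM for 46517 genes. The submitters' processing notes name cutadapt, RSEM, edgeR and mm10 with no version or role. A second deposited table compares the genotypes over 23955 genes, with fold changes (linear ratio and log2), mean log2 CPM, an F value (a score), p-value and FDR per gene. The authors' table does not state its direction, which was read as Setd2D/D over Setd2f/f because its signs follow the TPM ratios. Fields split by a comma were rejoined in 5 rows of the TPM table and 2 of the other. TPM keeps no depth, so the depth per library is unknown and no count test was made.

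Genes at 1 TPM or more in at least 2 libraries (14755) were transformed to log2(TPM + 1) and fitted with limma 3.58.1 in R 4.3.3. The model held genotype alone, variances were moderated along abundance, and 2-sided p-values were adjusted over all genes by Benjamini-Hochberg. An exact permutation test of 2 against 2 cannot go below p = 0.333. Gene positions come from GENCODE M21 on GRCm38, with 46005 identifiers matched. The members and gene lists were chosen with earlier results of these data known. Values per library are given for members past the authors' FDR, the 8 with the smallest limma p, those without overlap at an absolute log2 change of at least 0.25, and others by role, and for up to 2 genes with the smallest p in each other list; a gene that this rule names is not reported here. Pms2, Rad54l, Rad50, Xrcc4, Fanca, Fancc, Lig3, Recql, Xpc and the head-to-head partners were added after their values were seen. The fit was run on simulated data with planted changes, where the only condition set was on the mean estimated change. Its error rate and power with 2 libraries a genotype were not judged by it. Alternatives changed the pseudocount, the filter, the scaling, the variance moderation and the replicate block, and left out each library.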

Additional observations from a re-analysis of the deposited data

How the results depend on the processing

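Of the 39 members, 0 passed limma's adjusted p of 0.05 under each of the 14 alternatives, and their lowest adjusted p was 0.198 (Fancc without Setd2D/D replicate 2). Over all genes the main count of 10 became 3 with a pseudocount of 0.1, 0 with no filter on low values, 19 with no abundance trend and 0 with the replicate block, and with a library left out it was 0 in each case. The members' median log2 change of 0.01 became 0.0616 by median-of-ratios scaling and 0.0669 by quantiles, where the median of all genes was -0.0081 and -0.0035, and ranged between -0.121 and 0.0433 with a library left out. Of 389 member values under the 10 other alternatives, 1 changed sign, as Brca1 moved to 0.00 (0.0035) by quantiles. With a library left out, 18 of 156 changed sign, in 14 members. These were Pms2, Rad50, Rad51c, Xrcc2, Wrn, Chek2, Fancc, Lig3 and Xrcc1, and the following, of which Brca1 ranged between -0.53 and 0.37, Brca2 between -0.062 and 0.19, Parp1 between -0.10 and 0.18, Rad51b between -0.14 and 0.42 and Msh3 between -0.20 and 0.441. The cause was not tested. The deviations of libraries with the same replicate number had a correlation of 0.04 over 14755 genes. It rests on these 4 libraries, so it cannot show whether libraries of the same number were prepared together. The block moved the members' lowest adjusted p to 0.494. With a library left out, the lone library is assumed to vary like the other genotype. TPM holds no depth, so no floor could be set for Lig4.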
